A study of Mus musculus with 6 samples.

Results

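Cd209a dendritic cells were examined in obstructed mouse kidneys by single-cell RNA sequencing, in which each transcript molecule of a cell is counted by a unique molecular identifier (UMI). The cells were chosen by their own UMIs. A barcode needed at least 2 UMIs of Cd209a, with fewer than 2 of Xcr1 and Clec9a together, at most 5 of the complement genes C1qa, C1qb and C1qc together, fewer than 2 of the T cell genes Cd3e, Cd3d, Cd3g and Trac together, and fewer than 3 of Ccr7 and Fscn1 together. Of 25978 deposited barcodes, 23578 had at least 200 genes and at most 50% mitochondrially encoded UMIs, and 1025 of these (4.35%) met the rule. They comprised 54, 78 and 74 SH045 cells, 206 in all, and 314, 215 and 290 Vehicle cells, 819 in all, by library.

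All mice were C57BL/6 and had undergone unilateral ureteral obstruction (UUO), a surgical model of kidney fibrosis. The obstructed kidney was taken at day 7 after surgery. Of these mice, 3 had received SH045, which the series title links to blockade of the ion channel TRPC6, and 3 had received Vehicle. Each library came from 1 mouse and is called by its group and its replicate number in the labels, as in SH045 1. The labels used here give neither dose nor route nor the start of treatment, nor the age of the mice, and no sorting of cells is described.

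Conventional dendritic cells take up antigen, process it and present it on MHC class II molecules to T cells. One branch, marked by Xcr1 and Clec9a, specialises in presenting antigen of dead or infected cells to CD8 T cells, and the other, which depends on the transcription factor Irf4 and often carries Sirpa and C-type lectins, primes helper T cells. Cd209a encodes a mouse C-type lectin related to human DC-SIGN and is found on dendritic cells of the second branch and on dendritic cells derived from monocytes. In the injured kidney such cells lie in the interstitium beside macrophages, with which they share many transcripts.

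The libraries held 21186872 to 32256602 UMIs, and the lowest total of any barcode was 2166 to 3175 UMIs. Cd209a dendritic cells had median totals of 4248, 4972.5 and 4976 UMIs with SH045, against 4239, 5174 and 5396 UMIs with Vehicle. Their summed UMIs were 251678, 461221 and 420434 in SH045 and 1491075, 1301408 and 1706288 in Vehicle, so precision was lower in SH045. In a principal component analysis of these sums, SH045 1 stood apart from the other libraries on the first component (35.4% of the variance) and SH045 3 on the second (26.5%). A doublet caller, Scrublet, placed 28 of the 1025 cells (2.73%) in the top 5% of scores. Of the barcode strings, 209 occurred in 2 libraries, and 0 of these were Cd209a dendritic cells in both.

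Cd209a dendritic cells took a smaller share of the kept cells in SH045 than in Vehicle, in every library. The share was 1.58%, 1.96% and 2.04% in SH045, against 7.58%, 5.04% and 7.01% in Vehicle. The groups did not overlap, and the highest SH045 library lay below the lowest Vehicle library. The means were 1.86 ± 0.25% in SH045 and 6.54 ± 1.33% in Vehicle (SD, n = 3 each), a ratio of 0.284. The two-sided exact permutation test gave p = 0.1, the smallest p that 3 against 3 libraries allow. A share depends on every other cell in the library, and the number of cells per kidney was not measured.

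The difference was also present inside the myeloid cells. Of the cells in the Cd209a and Xcr1 dendritic gates together, Cd209a cells made up 34.4%, 40.0% and 42.8% in SH045 and 72.2%, 51.9% and 62.0% in Vehicle, a ratio of 0.630 without overlap (exact permutation p = 0.1). Of Cd209a dendritic cells and C1q macrophages together, they made up 4.96%, 5.42% and 3.97% in SH045 and 14.9%, 11.9% and 12.6% in Vehicle, a ratio of 0.364 (exact permutation p = 0.1). The other dendritic gates moved in both directions, and their ratios were not tested against that of the Cd209a cells. Xcr1 dendritic cells made up 2.89 ± 0.15% of kept cells in SH045 and 3.96 ± 0.92% in Vehicle (SD, n = 3 each), with overlapping libraries and an exact permutation p of 0.3. Cells with Ccr7 and Fscn1, the genes of dendritic cells that migrate to lymph nodes, made up 0.467% in SH045 and 0.932% in Vehicle without overlap (exact permutation p = 0.1). Plasmacytoid dendritic cells, few in every library (14, 19 and 12 cells in SH045, 13, 5 and 8 in Vehicle), made up 0.406% in SH045 and 0.208% in Vehicle, higher without overlap (exact permutation p = 0.1).

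**Figure D1:**
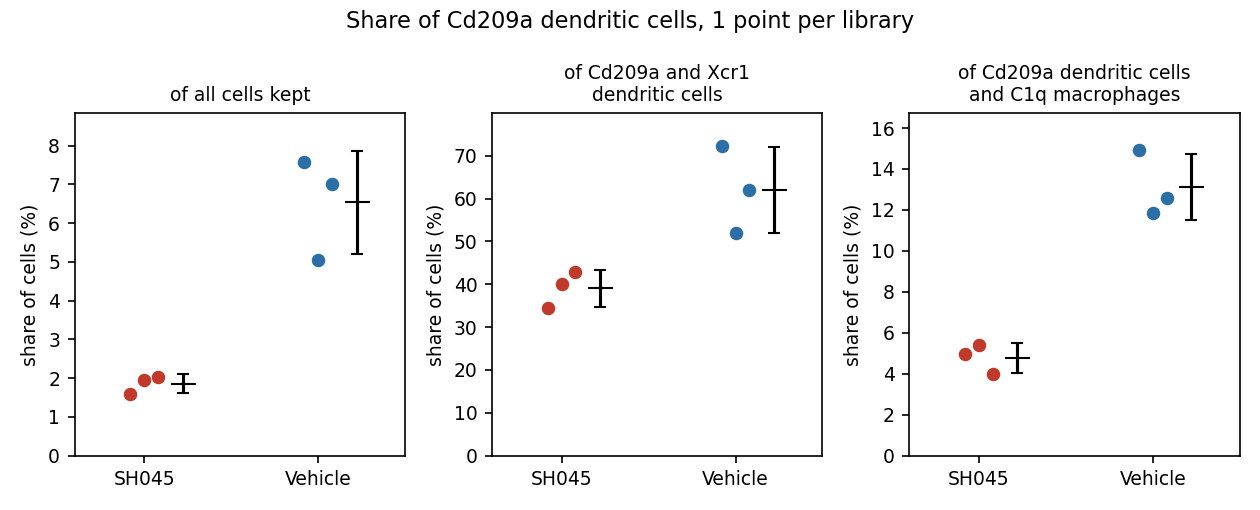
Shares of cells (%, vertical axes) in SH045 and Vehicle, with 1 point per library and the mean with SD. The Cd209a dendritic cells lie between 1.58% and 2.04% of kept cells in SH045, below all 3 Vehicle libraries (5.04% to 7.58%), and the groups are also apart as a share of Cd209a and Xcr1 dendritic cells (middle) and of Cd209a dendritic cells and C1q macrophages (right).

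Since Cd209a itself chose the cells, a lower Cd209a level per cell would also lower their number. The Cd209a level of the chosen cells was 1752, 2385 and 2398 CPM (counts per 1000000 UMIs of the gate) in SH045 and 3913, 2518 and 2647 CPM in Vehicle, a description only. Of the chosen cells, 26 in SH045 and 55 in Vehicle lay at the limit with 2 Cd209a UMIs, and 55 in SH045 and 196 in Vehicle met every other limit but had just 1. At the other end, 102 cells in SH045 and 500 in Vehicle had 10 or more. Of cells with at least 2 Cd209a UMIs, 27 in SH045 and 113 in Vehicle were kept out by the C1q limit, and of these 7 SH045 and 33 Vehicle cells had a C1q sum of 6 to 10. Among tubule cells that met the other limits, a background from free RNA, 1.21% had at least 1 Cd209a UMI and 0.413% at least 2, at a median depth of 5805 UMIs. This background also differed by group. With at least 1 UMI it was 0.287%, 0.757% and 0.483% in SH045 and 2.13%, 1.85% and 3.27% in Vehicle. With at least 2 it was 0.143%, 0.108% and 0% in SH045 and 0.266%, 0.996% and 1.45% in Vehicle, without overlap at either limit. The part of free RNA in the share difference was not tested. The lectin gene Mgl2 was then used in place of Cd209a, a choice made after the data were seen. Cells with at least 2 Mgl2 UMIs under the same other limits made up 2.26 ± 0.89% of kept cells in SH045 and 7.204 ± 1.57% in Vehicle (SD, n = 3 each), a ratio of 0.314 without overlap. Of these Mgl2 cells, 58.6%, 47.3% and 70.8% in SH045 and 67.2%, 59.5% and 62.3% in Vehicle also had 2 Cd209a UMIs, with overlapping groups. The background of Mgl2 differed by group as well. With the cells of each group pooled, 3.17% of tubule cells in SH045 and 8.73% in Vehicle had at least 1 Mgl2 UMI. Among C1q macrophages, 66.8% had one. The part of free RNA in the Mgl2 share difference was not tested.

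The chosen cells carried the markers of their label. These levels are given as the mean of 6 libraries in CPM, and as the genes of a cell population sorted by its own transcripts they are described without a test. Ccl17, a chemokine that draws Ccr4-bearing T cells, averaged 1475 CPM in Cd209a dendritic cells, 59.8 CPM in Xcr1 dendritic cells and 74.3 CPM in macrophages. Clec10a, a galactose-binding lectin, averaged 353 CPM in Cd209a dendritic cells, 3.898 CPM in Xcr1 dendritic cells and 53.9 CPM in macrophages. H2-DMb2, a chain of the H2-DM complex that loads peptides onto MHC class II, averaged 616 CPM in Cd209a dendritic cells, 125 CPM in Xcr1 dendritic cells and 31.1 CPM in macrophages. Among these 3 gates, all 3 genes were highest in the Cd209a cells. In the Ccr7 dendritic cells Ccl17 was as high, at 1508 CPM, while Clec10a was 10.1 CPM and H2-DMb2 was 368 CPM.

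Their other transcripts placed them beside both populations. Irf4 averaged 34.6 CPM, against 0.28 CPM in Xcr1 dendritic cells and 6.27 CPM in macrophages. Flt3, the receptor for the growth factor that conventional dendritic cells depend on, averaged 44.4 CPM, against 167 CPM in Xcr1 dendritic cells and 1.26 CPM in macrophages. Zbtb46, a transcription factor of conventional dendritic cells, averaged 29.99 CPM, against 54.4 CPM in Xcr1 dendritic cells and 1.18 CPM in macrophages. Sirpa averaged 109 CPM, against 2.13 CPM in Xcr1 dendritic cells and 221 CPM in macrophages, and so was highest in macrophages. The macrophage genes given next were lower than in macrophages, by unequal amounts. The macrophage receptor genes Adgre1 and Mertk averaged 10.96 CPM and 0.11 CPM, against 484 CPM and 25.1 CPM in macrophages, and Csf1r averaged 167 CPM, against 754 CPM. Lyz2 and Fcer1g stayed abundant, at 2406 CPM and 2225 CPM, against 10428 CPM and 3581 CPM in macrophages. Among genes of at least 100 CPM, the highest ratios to the next gate after Cd209a belonged to Asgr2 (162 CPM, against 21.8 CPM in macrophages), Ltb4r1, the leukotriene B4 receptor (121 CPM, against 20.5 CPM in macrophages), Ifitm6, Klrb1b and Ear2. The other genes of the Cd209 family can share reads with Cd209a, so their levels are uncertain, and of these Cd209d averaged 98.6 CPM. Trpc6 had 0 UMIs in all 1025 cells, which allows a share of cells with a UMI of up to 0.293%.

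**Figure D2:**
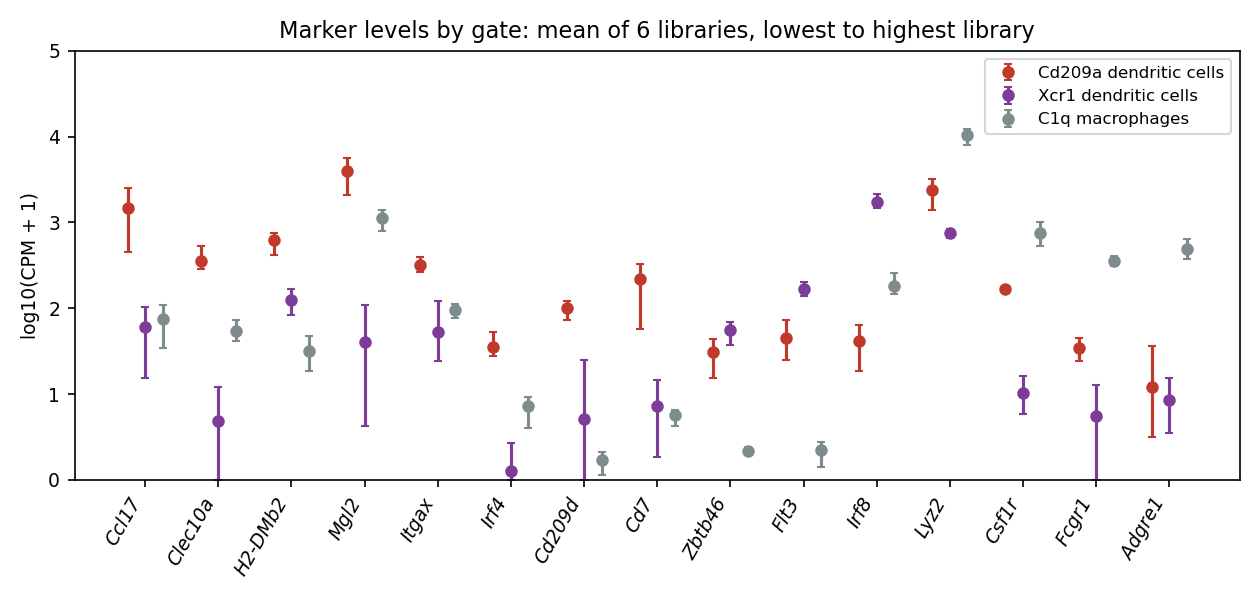
Levels of marker genes on a log10(CPM + 1) axis in Cd209a dendritic cells, Xcr1 dendritic cells and C1q macrophages, as the mean of 6 libraries with bars from the lowest to the highest library. Of these 3 populations, the Cd209a dendritic cells have the highest Ccl17, Clec10a, H2-DMb2 and Mgl2, and their Flt3 and Zbtb46 lie between the Xcr1 dendritic cells and the macrophages.

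The chosen cells were not uniform, and Cd7 marked the clearest difference among them. This description was made after the values were seen and pools the cells of all libraries. Cd7, a surface protein of lymphoid cells, averaged 952 CPM in the plasmacytoid gate, 277 CPM in T cells and 216 CPM in Cd209a cells (mean of 6 libraries). A Cd7 UMI was found in 233 of the 1025 cells. These cells made up 16.7%, 12.8% and 20.3% of the Cd209a cells in SH045 and 16.9%, 29.3% and 28.6% in Vehicle, with overlapping groups. Cells with a Cd7 UMI had 723 CPM of Plac8 and 309 CPM of Ly6c2, both genes of monocytes and plasmacytoid cells, against 86.4 CPM and 19.2 CPM in cells with none. They had 721 CPM of Mgl2, 132 CPM of Ccl17, 554 CPM of Lyz2, which encodes lysozyme, and 131 CPM of Ear2, against 5231, 1750, 3189 and 976 CPM in cells with none. Clec10a differed little, with 386 CPM in cells with a Cd7 UMI and 330 CPM in cells with none. The plasmacytoid marker Siglech was 101 CPM with a Cd7 UMI and 4.79 CPM without. Ly6d, one of the called genes given below, was 134 CPM with and 9.14 CPM without, and Flt3 80.0 and 26.1 CPM. Of the 233 cells, 15 also had a Siglech UMI. The median depth was 3914 UMIs with a Cd7 UMI and 5276 without, so the cells with Cd7 were the shallower ones.

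Levels also shifted with the number of Cd209a UMIs, which the rule used. Mgl2 was 2352 CPM in cells with 2 Cd209a UMIs, 2724 CPM with 3, 3241 CPM with 4 to 9 and 5295 CPM with 10 or more. In the cells just outside, with 1 Cd209a UMI, Mgl2 was 671 CPM. Lyz2 was 5396 CPM, 5738 CPM, 3382 CPM and 1799 CPM in the same bins of 2, 3, 4 to 9 and 10 or more, and Ly6c2 was 161, 335, 100.8 and 24.4 CPM. Cells near the limit therefore had more Lyz2 and Ly6c2 and less Mgl2 than those with the most Cd209a. Cells with 2 UMIs made up 20.4%, 10.3% and 9.46% of the Cd209a cells in SH045 and 5.10%, 8.84% and 6.90%, without overlap in Vehicle. Cells with 10 or more made up 31.5%, 57.7% and 54.1% in SH045 and 68.2%, 59.1% and 54.8%, with overlap in Vehicle. This composition, a direct outcome of the rule, is a description, and its part in the gene levels given next was not tested.

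**Figure D3:**
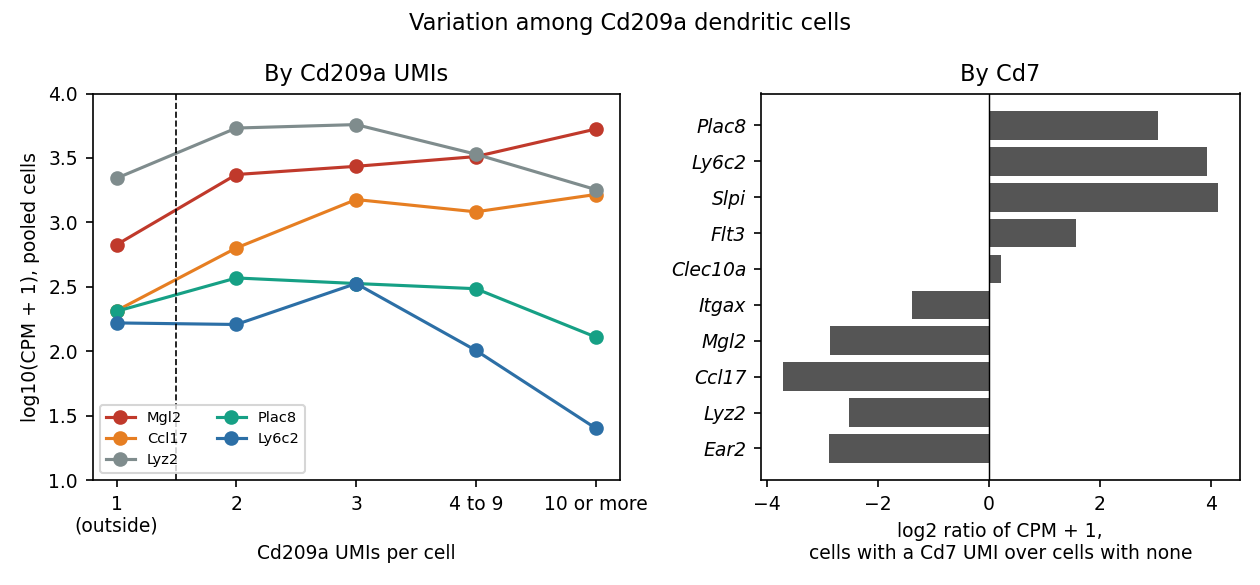
Left, levels of 5 genes on a log10(CPM + 1) axis in pooled cells by their number of Cd209a UMIs, with the cells just outside the rule left of the dashed line. Right, the log2 ratio of CPM + 1 in cells with a Cd7 UMI over cells with none. Mgl2 climbs to 5295 CPM at 10 or more Cd209a UMIs, and Plac8 and Ly6c2 are higher, but Mgl2, Ccl17, Lyz2 and Ear2 lower, in cells with Cd7.

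Few transcripts differed between SH045 and Vehicle inside the Cd209a dendritic cells, and all of them were lower in SH045. UMIs were summed per library and compared by edgeR's quasi-likelihood test, with a Benjamini-Hochberg adjusted p under 0.05 as the limit. Of 7147 genes tested, 4 passed (0.056%), with 0 higher and 4 lower, and at an unadjusted p under 0.05 there were 730 genes (10.2%), 383 higher (5.36%) and 347 lower (4.86%). DESeq2 called 9 genes. With cells chosen by Mgl2, 2 genes passed and 0 of the 4 was among them, and with a minimum of 1 Cd209a UMI only Apoe of the 4 passed. The 4 genes were Igfbp7, Retnla, Ly6d and Apoe, and in each the SH045 libraries all lay below the Vehicle libraries, as for 5.78% of all genes tested. On simulated data of the same depth, with a fixed dispersion of 0.05 for every gene, 78% of 4-fold and 21% of 2-fold changes were recovered. Recovery for genes that vary more between libraries was not simulated.

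Igfbp7 encodes a secreted binding protein of insulin-like growth factors (chr5:77349240-77408041 in mm10, minus strand). It was 59.6, 34.7 and 21.4 CPM in SH045, against 117, 159 and 123 CPM in Vehicle. The groups did not overlap, and the log2 change was -1.97 (SE 0.26, edgeR adjusted p = 0.00213). In Vehicle, 10 cells with at least 10 UMIs each held 398 of the 592 Igfbp7 UMIs, and SH045 had 0 such cells. Without the UMIs of those cells, the level was 59.6, 34.7 and 21.4 CPM in SH045 and 46.3, 45.3 and 38.7 CPM in Vehicle, so the groups then overlapped. Igfbp7 had a UMI in 91.6% to 93.6% of tubule cells in SH045 and in 94.2% to 95.9% in Vehicle, against 10.8% to 20.4% of Cd209a dendritic cells in SH045 and 15.0% to 21.9% in Vehicle. The part of free tubule RNA or of mixed barcodes in the Igfbp7 difference was not tested. The call ended without SH045 2 (edgeR adjusted p = 0.155), with at least 3 Cd209a UMIs (0.0592) and with every cell thinned to 2000 UMIs (log2 change -1.14, adjusted p = 0.406).

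Retnla encodes a secreted protein of alternatively activated macrophages (chr16:48842551-48844461 in mm10, plus strand). It was 3.97, 4.34 and 0 CPM in SH045, against 78.5, 49.9 and 117 CPM in Vehicle, without overlap. This rested on 3 UMIs in SH045 and 382 in Vehicle, and the Vehicle level was 32.1 times the SH045 level, with an exact 95% counting interval of 10.9 to 156. The fitted log2 change was -4.97 (SE 0.61, edgeR adjusted p = 0.00213). In Vehicle, 6 cells held 289 of the 382 UMIs, and without these the level was 3.97, 4.34 and 0 CPM in SH045 and 24.8, 16.9 and 19.9 CPM in Vehicle, still without overlap. The same direction was seen in other gates. Macrophages had 42.3, 489 and 14.5 CPM of Retnla in SH045 and 890, 740 and 777 CPM in Vehicle, and tubule cells with a Retnla UMI made up 0.097%, 1.24% and 0% in SH045 and 5.66%, 4.53% and 6.65% in Vehicle. Among Cd209a dendritic cells that share was 1.85%, 1.28% and 0% in SH045 and 5.73%, 5.58% and 11.03% in Vehicle. It was close to the tubule share in SH045 2, Vehicle 1 and Vehicle 2, 0 in both gates in SH045 3, and above it in SH045 1 and Vehicle 3, and the part of free RNA in the difference was not tested. The Retnla call ended without SH045 1 (edgeR adjusted p = 0.192) and without SH045 2 (0.197), and also with a C1q sum of at most 2 (log2 change -4.31, adjusted p = 0.406).

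Ly6d encodes a surface protein of lymphoid progenitors and plasmacytoid dendritic cells (chr15:74762056-74763620 in mm10, minus strand). It had 1 UMI in SH045, in 1 library, and 180 UMIs in Vehicle, which gives 0, 2.17 and 0 CPM in SH045, against 34.2, 22.3 and 58.6 CPM in Vehicle. The Vehicle level was 45.3 times the SH045 level, with an exact 95% counting interval of 8.04 to 1801, and the fitted log2 change was -5.34 (SE 0.83, edgeR adjusted p = 0.0117). The UMIs lay in a small number of cells. Ly6d had a UMI in 2.87%, 2.33% and 4.14% of the Vehicle Cd209a cells, and 134 of the 180 Vehicle UMIs were in the 11 Vehicle cells that also had at least 2 UMIs of Siglech, a plasmacytoid marker, which 1 SH045 cell had. Leaving out any of the 3 SH045 libraries ended the Ly6d call, with edgeR adjusted p-values of 0.168 to 0.199.

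Apoe, a lipoprotein that carries lipid between cells and is abundant in tissue macrophages, was the most evenly spread of the 4 genes (chr7:19696109-19699188 in mm10, minus strand). It was 115, 91.1 and 133 CPM in SH045, against 213, 196 and 248 CPM in Vehicle, without overlap. The log2 change was -1.05 (SE 0.19, edgeR adjusted p = 0.0401). Without the 94 of 996 Vehicle UMIs held by 6 cells, the level was 193, 163 and 236 CPM in Vehicle, above the unaltered 115, 91.1 and 133 CPM in SH045. Cells with an Apoe UMI made up 38.9%, 32.1% and 45.9% of Cd209a dendritic cells in SH045 and 52.2%, 58.6% and 67.2% in Vehicle. Among tubule cells the share also lay lower in SH045, at 59.0%, 62.5% and 70.0%, against 79.2%, 76.2% and 83.6% in Vehicle. Macrophages carried most of the Apoe, with 19267 to 22942 CPM in SH045 and 17303 to 22391 CPM in Vehicle, and the part of free Apoe RNA in the difference was not tested. The Apoe call ended when SH045 1, SH045 2, Vehicle 1 or Vehicle 3 was left out, with edgeR adjusted p-values up to 0.197. It also ended with the trend of the log2 change with transcript length removed (log2 change -0.87, edgeR adjusted p = 0.199), thinned to 2000 UMIs (-0.94, 0.207), with a C1q sum of at most 2 (-1.19, 0.0737), with at least 3 Cd209a UMIs (-1.24, 0.0592), with a minimum of 3200 UMIs (-1.09, 0.0756) and without the Siglech cells (-1.04, 0.0562).

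**Figure D4:**
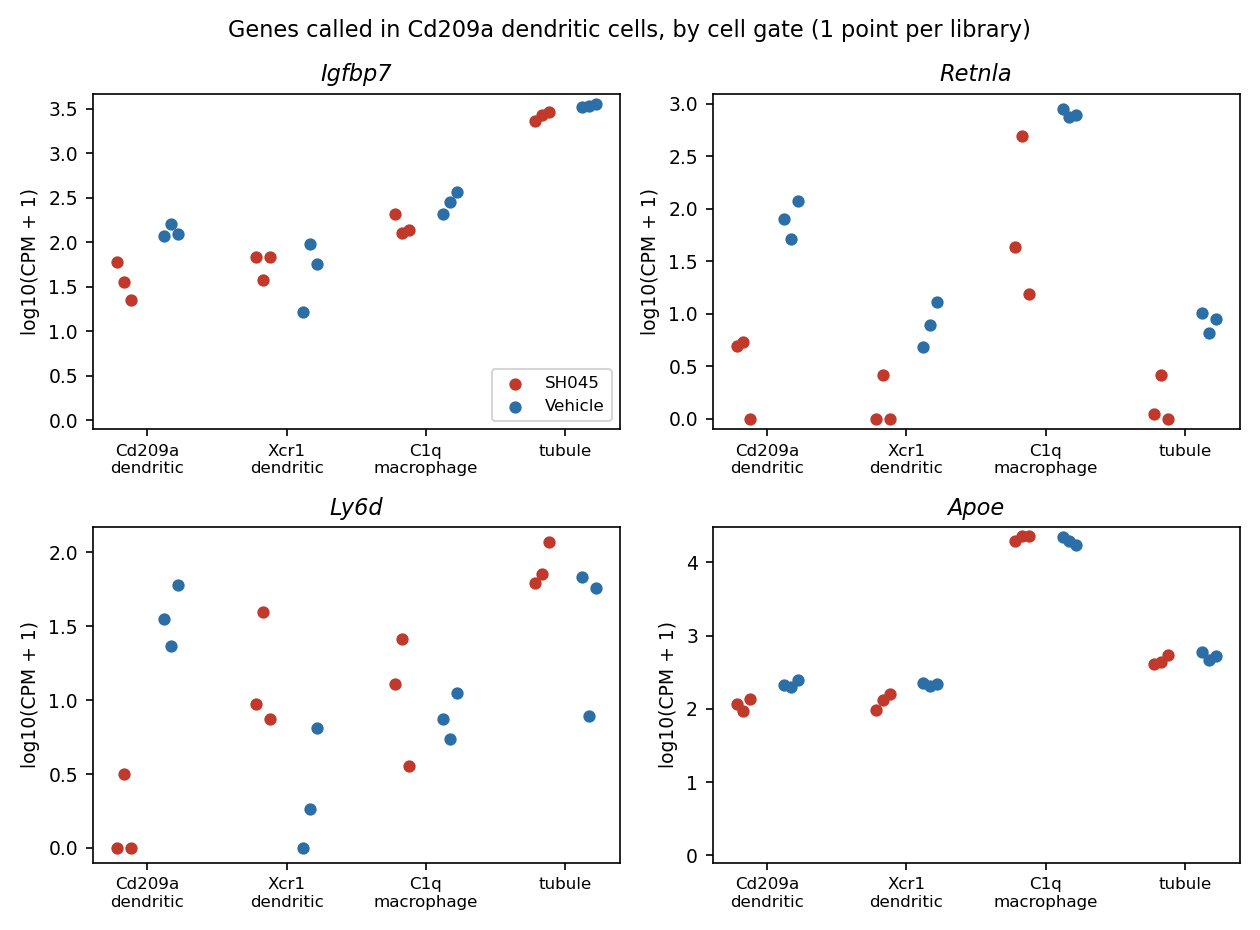
Igfbp7, Retnla, Ly6d and Apoe on log10(CPM + 1) axes in 4 cell gates, with 1 point per library. In Cd209a dendritic cells all 3 SH045 libraries lie below all 3 Vehicle libraries for each gene. Igfbp7 is highest in tubule cells, and Retnla and Apoe are highest in macrophages.

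The genes that define the population did not pass the test. Ccl17 was 453, 1739 and 2507 CPM in SH045, against 1905, 1160 and 1088 CPM in Vehicle, so that the SH045 libraries held both the lowest and the highest level. Its log2 change was 0.12 (edgeR adjusted p = 0.97), and cells with a Ccl17 UMI made up 33.3%, 44.9% and 40.5% of Cd209a cells in SH045 and 42.4%, 40.5% and 38.3% in Vehicle. Clec10a averaged 382 ± 125 CPM in SH045 and 324 ± 43.6 CPM in Vehicle, and Mgl2 averaged 3290 ± 1255 CPM in SH045 and 4640 ± 842 CPM in Vehicle (SD, n = 3 each), with overlapping libraries for both. Itgax, which encodes the integrin CD11c, was 370, 319 and 400 CPM in SH045, against 267, 273 and 294 CPM in Vehicle. These libraries did not overlap, as for 11% of all genes tested in the higher direction, and the log2 change of 0.29 did not pass (edgeR adjusted p = 0.56). Flt3 averaged 57.7 CPM in SH045 and 31.2 CPM in Vehicle (log2 change 0.74, edgeR adjusted p = 0.42). Irf4, Zbtb46, Sirpa and the monocyte chemokine receptor Ccr2 had log2 changes of 0.32, 0.01, -0.10 and 0.23, and 0 of them passed.

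Of 24 tested genes of the identity of this dendritic branch, 0 passed edgeR's test or DESeq2's, 4 were higher and 1 was lower at an unadjusted p under 0.05, and the median log2 change was 0.14, against 0.01 over all genes tested. At that unadjusted limit, 5.36% of all genes tested were higher and 4.86% lower, the shares to set beside each list's counts. Antigen presentation by MHC class II gave a median of -0.18 over 15 genes, 0 of which passed with either tool, and at an unadjusted p under 0.05 there were 1 higher and 1 lower. Cd74, the invariant chain that guides MHC class II molecules, was 39777, 58204 and 54175 CPM in SH045, against 70558, 52937 and 60901 CPM in Vehicle, the most abundant of these transcripts by UMIs, with overlapping groups (log2 change -0.36, edgeR adjusted p = 0.54). H2-Ab1, a chain of the class II molecule itself, averaged 16444 CPM in SH045 and 20358 CPM in Vehicle (log2 change -0.40, edgeR adjusted p = 0.49). H2-DMb2 averaged 584 ± 162 CPM in SH045 and 648 ± 123 CPM in Vehicle (SD, n = 3 each), with a log2 change of -0.22. For MHC class I presentation 0 of 18 genes passed, with a median of -0.23 and 3 lower at an unadjusted p under 0.05. The 11 tested genes of costimulation and checkpoints, among them Cd86, which binds CD28 on T cells, had a median of -0.17, and 0 passed, with 1 lower at an unadjusted p under 0.05.

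Secreted mediators varied between the SH045 libraries. Of 13 chemokine genes 0 passed, with a median log2 change of 0.01. At an unadjusted p under 0.05, 3 were lower, where 4.86% of all genes were. Il1b, an inflammatory cytokine, was 509, 141 and 78.5 CPM in SH045, against 180, 191 and 156 CPM in Vehicle, so that SH045 1 was the highest library and SH045 3 the lowest. Tnf was 47.7, 32.5 and 23.8 CPM in SH045, against 26.8, 53.0 and 26.96 CPM in Vehicle. Of 25 genes of the type I interferon response 0 passed, with a median of 0.02 and 2 lower at an unadjusted p under 0.05. Of 23 C-type lectin and pattern recognition genes 0 passed, with a median of -0.20. Of these, 6 had an unadjusted p under 0.05, all lower, where 4.86% of all genes did. Among the 6 were Cd209d and Cd209e, which can share reads with Cd209a, the gene that the rule used.

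Cell cycle genes formed the list with the highest median. Of 33 tested, 0 passed, 27 had a positive log2 change, and the median was 0.57, against 0.01 over all genes tested. In 11 of the 33 the SH045 libraries all lay above the Vehicle libraries, beside the 11% of all genes given above, and 10 had an unadjusted p under 0.05, all higher, where 5.36% of all genes did. Mki67, a marker of cycling cells, was 83.4, 62.9 and 128 CPM in SH045, against 43.6, 46.1 and 38.1 CPM in Vehicle, and Top2a, which untangles replicated DNA, was 95.4, 73.7 and 71.4 CPM in SH045, against 30.2, 36.9 and 45.1 CPM in Vehicle (edgeR adjusted p = 0.284 for each). Counted by cell, those with at least 2 UMIs of Mki67 and Top2a together made up 5.56%, 10.3% and 4.05% of Cd209a cells in SH045 and 5.10%, 4.65% and 4.83% in Vehicle, with overlapping groups.

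Oxidative phosphorylation gave a median log2 change of -0.20 over 52 genes, 47 of them negative, and 0 passed. At an unadjusted p under 0.05, 10 were lower, where 4.86% of all genes tested were. In macrophages the same list had a median of -0.44, and 22 of 52 genes passed, all lower, where 4.52% of all genes tested there did. Genes of lipid-associated macrophages gave a median of -0.46 over 11 tested, 10 of them negative, and only Apoe passed. Fabp5, a fatty acid carrier of that list, averaged 11.1 CPM in SH045 and 34.5 CPM in Vehicle without passing (log2 change -1.87, edgeR adjusted p = 0.284). The 52 ribosomal protein genes had a median of 0.10, and 0 passed, with 4 higher at an unadjusted p under 0.05, where 5.36% of all genes were. Of the lists of this and the preceding paragraphs, the identity list included, DESeq2 called 1 gene, in the lipid-associated list. Across genes, the log2 change had a Spearman correlation of 0.267 with transcript length, with medians of -0.08 in the shortest 10% of genes and 0.19 in the longest 10%, and with this trend removed the median was -0.07 for oxidative phosphorylation, 0.25 for ribosomal proteins, -0.01 for MHC class II, -0.37 for lipid-associated macrophage genes and 0.59 for the cell cycle.

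Transcripts of other cell types in the Cd209a sums moved as follows. Markers of B and plasma cells summed to 140 to 294 CPM in SH045 and 566 to 16562 CPM in Vehicle without overlap, and in Vehicle 9 cells held 28598 of the 29642 UMIs of the antibody light chain gene Igkc. Macrophage markers summed to 898 to 1151 CPM in SH045 and 1124 to 1307 CPM in Vehicle, and tubule markers to 119 to 1379 CPM in SH045 and 314 to 788 CPM in Vehicle, both with overlap. Monocyte markers summed to 3092 to 4963 CPM in SH045 and 4882 to 5756 CPM in Vehicle, also with overlap. Markers of Xcr1 dendritic cells summed to 528 to 568 CPM in SH045 and 457 to 478 CPM in Vehicle without overlap. Plasmacytoid markers summed to 247 to 414 CPM in SH045 and 396 to 587 CPM in Vehicle, with overlap. Of the neutrophil markers, Ly6g, Ngp and Camp were at 0 in all libraries.

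The change with SH045 was next compared between Cd209a dendritic cells and macrophages of the same mice. An interaction term with the library as a block tested the difference of the log2 changes. Of 11275 genes, 30 passed (0.266%), 18 (0.16%) with a higher and 12 (0.106%) with a lower log2 change in the dendritic cells. Most of them moved in the macrophages. Of the 18, 16 fell in macrophages by their own edgeR test, and of the 12, 5 rose there, while only Ly6d passed in the dendritic cells. The macrophages, summed over 9586 cells, had 1284 of 12431 genes called (10.3%), 722 higher (5.81%) and 562 lower (4.52%).

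S100a10, a calcium-binding family protein that anchors proteins at the plasma membrane, averaged 583 CPM in SH045 and 527 CPM in Vehicle dendritic cells, and fell to 117 CPM in SH045 macrophages, against 200 CPM in Vehicle macrophages (difference of log2 changes 0.93, SE 0.14, edgeR adjusted p = 0.000597). Tmsb10, an actin-binding thymosin, averaged 2174 CPM in SH045 and 1962 CPM in Vehicle dendritic cells, and fell to 488 CPM in SH045 macrophages, against 733 CPM in Vehicle macrophages (difference 0.72, SE 0.12, edgeR adjusted p = 0.0040). Smpdl3a, a phosphodiesterase, averaged 162 CPM in SH045 and 107 CPM in Vehicle dendritic cells, and 56.5 CPM in SH045 and 83.2 CPM in Vehicle macrophages (difference 1.18, SE 0.18, edgeR adjusted p = 0.00127). In these 3 genes the dendritic mean was higher in SH045 without passing the test, while the macrophage level fell. Zfp36l1, which promotes decay of messenger RNA, showed the opposite pattern, with 216 CPM in SH045 and 244 CPM in Vehicle dendritic cells, and 424 CPM in SH045 and 276 CPM in Vehicle macrophages (difference -0.83, SE 0.14, edgeR adjusted p = 0.0040). Ly6d differed by -6.35 (SE 0.76, edgeR adjusted p = 2.27e-05), on the few cells described above.

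Several of the 30 genes were ones that Cd209a dendritic cells carry at high level. H2-DMb2, one of the markers, averaged 20.5 CPM in SH045 and 41.8 CPM in Vehicle macrophages and fell there by 1.17 on the log2 scale, while the change in the dendritic cells was -0.22 (difference 0.91, edgeR adjusted p = 0.0045). Ltb4r1, one of the leading genes of the dendritic cells, averaged 129 CPM in SH045 and 113 CPM in Vehicle dendritic cells, and 12.8 CPM in SH045 and 28.3 CPM in Vehicle macrophages. Of the 18 genes with a higher change in the dendritic cells, 17 had a higher Vehicle level there than in macrophages, as did 45.9% of all genes tested. The share of Cd209a dendritic cells differed between the groups as well, and the part of their free RNA or of mixed barcodes in the macrophage values was not tested. With cells chosen by Mgl2, 23 genes passed and 3 of them were among the 30. In that setting the macrophages also had to have fewer than 2 Mgl2 UMIs, so they were a different set. Their number fell from 1035, 1362 and 1792 to 594, 713 and 944 cells in SH045. In Vehicle it fell from 1787, 1597 and 2013 to 843, 625 and 782 cells. The differences of S100a10 and Smpdl3a missed the limit when cells were thinned to 2000 UMIs (0.65, edgeR adjusted p = 0.0925, and 0.76, 0.439), as did that of Tmsb10 with a minimum of 3200 UMIs (0.67, 0.288). With cells chosen by Mgl2, S100a10 (0.26, edgeR adjusted p = 0.813) and Smpdl3a (0.79, 0.125) missed it too. Smpdl3a also missed it with at least 1 Cd209a UMI (0.83, edgeR adjusted p = 0.0703).

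**Figure D5:**
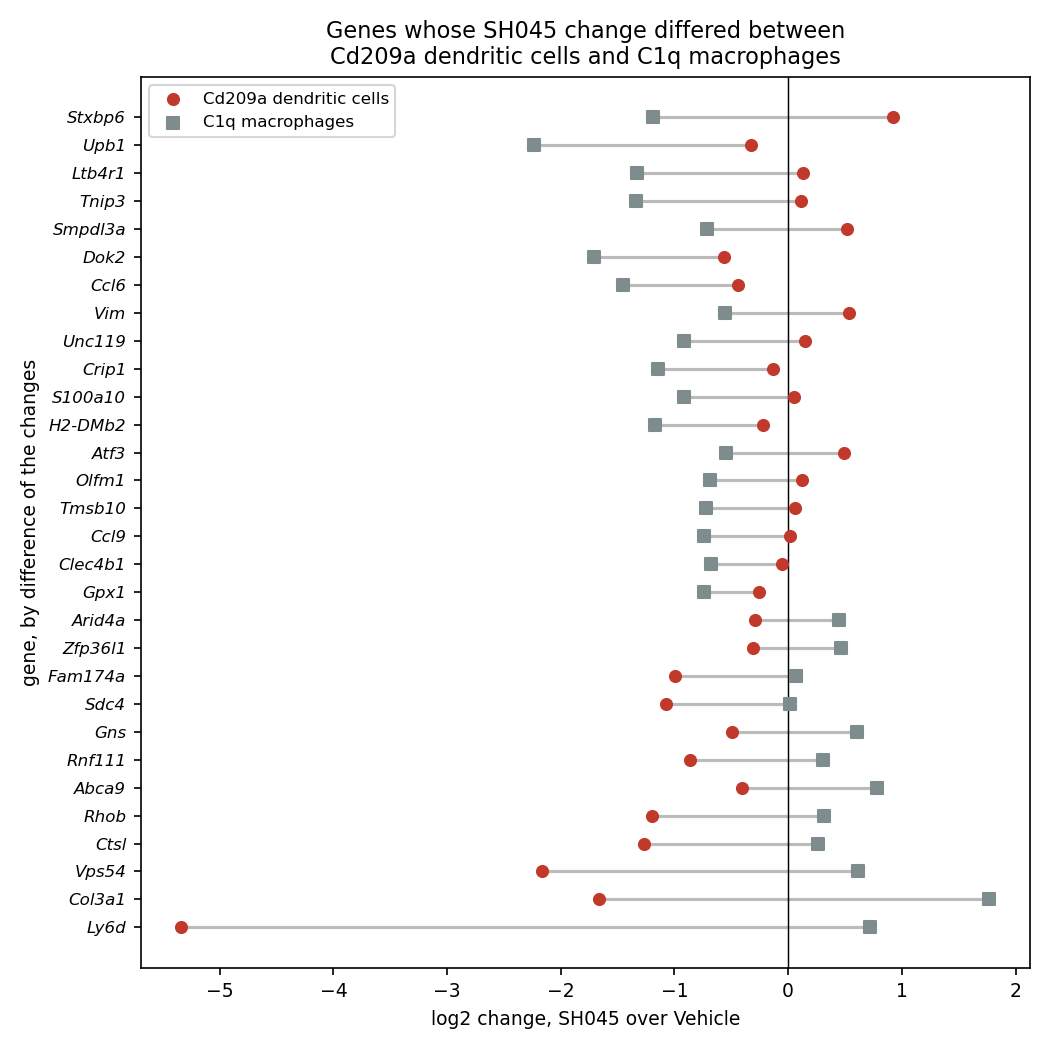
The log2 change, SH045 over Vehicle, of the 30 genes whose change differed between Cd209a dendritic cells and C1q macrophages, with 1 symbol per population. The upper 18 genes lie near or above 0 in the dendritic cells for the most part and below 0 in the macrophages, and Ly6d stands apart at -5.34 in the dendritic cells.

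Against Xcr1 dendritic cells, 12 of 6983 genes differed in their change (0.172%), 2 higher (0.0286%) and 10 lower (0.143%) in Cd209a dendritic cells, most of them at few UMIs. Inside the Xcr1 cells alone, 1 of 5872 genes passed, lower in SH045 (0.017%). Ly6a, a surface protein induced by interferon, was the most abundant of the 5 with the smallest p, at 49.5 CPM in SH045 and 149 CPM in Vehicle Cd209a cells, and 83.1 CPM in SH045 and 64.5 CPM in Vehicle Xcr1 cells (difference -1.97, SE 0.31, edgeR adjusted p = 0.000413). Its own change in Cd209a dendritic cells did not pass (edgeR adjusted p = 0.284). The Ly6a difference kept its direction but lost its call with DESeq2 (-1.85, adjusted p = 0.106), without the top Scrublet scores (-1.71, 0.229), with at least 1 Cd209a UMI (-1.46, 0.782) and by Mgl2 (-2.00, 0.941). Klk1 and Tmem52b, with differences of -5.46 each, averaged 4.96 and 3.56 CPM in SH045 and 15.3 and 15.5 CPM in Vehicle Cd209a cells. In Xcr1 cells Klk1 was 57.3 ± 55.6 CPM in SH045 and 4.81 ± 1.78 CPM in Vehicle. Tmem52b was 23.8 ± 18.6 CPM in SH045 and 2.48 ± 1.52 CPM in Vehicle Xcr1 cells (SD, n = 3 each). Both differences thus include a higher, widely spread SH045 level in the Xcr1 cells. The Klk1 call ended with DESeq2 (adjusted p = 0.0626) and with at least 1 and at least 3 Cd209a UMIs (edgeR adjusted p = 0.535 and 0.127). The Tmem52b call ended with DESeq2 (adjusted p = 0.775). In edgeR it ended without the top Scrublet scores (0.570), with at least 1 Cd209a UMI (0.361) and by Mgl2 (0.922). It also ended without SH045 3, Vehicle 2 or Vehicle 3 (edgeR adjusted p = 0.192 to 0.259). Cox6a2, a muscle-type subunit of cytochrome c oxidase, had 0 CPM in SH045 and 15.7 CPM in Vehicle Cd209a cells. In Xcr1 cells it had 11.8 ± 13.6 CPM in SH045 and 0.31 ± 0.53 CPM in Vehicle (SD, n = 3 each). The Cox6a2 call ended without SH045 2 (edgeR adjusted p = 0.168) and with at least 1 and at least 3 Cd209a UMIs (0.822 and 0.945). With every cell thinned to 2000 UMIs, 0 of 2847 differences passed in edgeR (183 at an unadjusted p under 0.05). Of the 5 genes, only Ly6a was then tested, and its difference was -2.14 (adjusted p = 0.227). Cells with at least 2 Siglech UMIs were also left out, a choice made after the data were seen. Of the 5 genes, only Ly6a and Tmem52b were then tested. Their differences were -1.81 and -5.48 (edgeR adjusted p = 0.00531 and 0.0242).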

How the data were processed

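Each library was deposited as UMI counts per gene and barcode, in whole numbers. The build was mm10 per the submitters' processing notes, and the aligner, the annotation and the cell calling rule are not given in the sources used here. Contralateral and spatial samples were not analysed here. The cells, gene lists and tests were chosen with earlier results of these data known. Counts of the chosen cells were summed per library and tested with edgeR 4.0.16 under R 4.3.3 (robust quasi-likelihood test, TMM scaling, filterByExpr defaults, Benjamini-Hochberg limit 0.05). The interaction tests added the library as a block. Genes used by the rule stayed in the fits, and no test of them is reported. CPM are UMIs per 1000000 UMIs of the gate. Gates, shares and Scrublet scores came from python 3.11.15 with scanpy 1.11.5, and shares were tested by exact permutation with scipy 1.17.1. Each exact interval covers counting error only. Each n counts mice, since cells of a mouse are not replicates. Named genes were the called genes with libraries that did not overlap, up to 4 called genes per list, 19 fixed genes and the 5 smallest p of each interaction, and other genes were named after their values were seen. Gene positions are those of a mm10 annotation. Simulated data had a fixed dispersion of 0.05 for every gene, and changes were set only in genes above a minimum mean count. There the comparison recovered 78% of 4-fold and 21% of 2-fold changes among 7154 genes, with 7 false of 106 calls. The interaction with macrophages recovered 48% and 2% among 11144 genes. Replicate numbers did not pair the libraries, with correlations of same-numbered deviations of -0.007, 0.035 and 0.112.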

Additional observations from a re-analysis of the deposited data

Results flagged for a closer look

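The change with SH045 differed between Cd209a dendritic cells and C1q macrophages, by the interaction test in edgeR, for Ly6d (difference of log2 changes -6.35), S100a10 (0.93), Smpdl3a (1.18), Zfp36l1 (-0.83) and Tmsb10 (0.72). It differed between Cd209a and Xcr1 dendritic cells for Ly6d (-8.16), Klk1 (-5.46), Ly6a (-1.97), Cox6a2 (-11.18) and Tmem52b (-5.46). The largest of these, Ly6d and Cox6a2, rested on 1 and 0 UMIs in the SH045 Cd209a cells, so their fitted values depend on the prior count. The Ly6d difference from macrophages was -4.47 (SE 1.04) and missed the limit when the cells with at least 2 Siglech UMIs were left out (edgeR adjusted p = 0.0594), a choice made once the data had been seen. The Ly6d difference from Xcr1 cells missed the limit with at least 1 Cd209a UMI (-3.79, edgeR adjusted p = 0.131). Settings that ended other calls are given above.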

How the results depend on the processing

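The 3 shares of Cd209a dendritic cells kept their direction under every alternative run, and the ratio to Vehicle of their share of kept cells lay between 0.255 and 0.314. The 4 called genes became 2 with at least 3 Cd209a UMIs (Retnla and Ly6d), with a C1q sum of at most 2 (Igfbp7 and Ly6d), with a minimum of 3200 UMIs and without cells with 2 Siglech UMIs (Igfbp7 and Retnla in both). They also became 2 with cells thinned to 2000 UMIs and with cells chosen by Mgl2 (both higher), with 0 of the 4 among them in either. The choices of Mgl2 and Siglech were made after the data were seen. They became 9 with DESeq2 and 28 with no low-count filter. With the replicate number as a block, 13 genes passed, all lower, though the numbers did not pair the libraries. Leaving out each library gave 0 (edgeR without SH045 2, with 1054 of 8703 at an unadjusted p under 0.05) to 6 genes. Thinned, 33 genes differed from macrophages, 6 of them among the 30. The 30 differences from macrophages became 105 with no low-count filter and 28 to 81 (without Vehicle 2) with each library left out. The 12 differences from Xcr1 dendritic cells became 4 and 3 with at least 1 and at least 3 Cd209a UMIs, 0 when thinned, 5 by Mgl2, 7 without Siglech cells, 5 with DESeq2, 33 with no low-count filter and 7 to 15 with each library left out. Among genes that did not pass, signs turned for Ccl17 (-0.17 thinned, -0.053 with the replicate block), Zbtb46 (-0.0708 with at least 3 Cd209a UMIs, -0.0375 with the C1q limit of 2, -0.11 without the top Scrublet scores, -0.0028 without Siglech cells, -0.067 with no low-count filter, -0.0324 with the block, -0.0624 with the length trend removed), Sirpa (0.068, 0.013, 0.083 and 0.18 with at least 1 and at least 3 Cd209a UMIs, thinned and by Mgl2) and Tnf (0.17 with at least 1 Cd209a UMI). Over fits with a library left out, the log2 change ranged from -0.40 to 0.56 for Ccl17, -0.18 to 0.33 for Clec10a, -0.48 to 0.37 for Zbtb46, -0.31 to 0.024 for Sirpa, -0.031 to 0.39 for Ccr2, -0.49 to 0.014 for Cd86, -0.71 to 0.67 for Il1b and -0.36 to 0.20 for Tnf. The cause was not tested. The median log2 change lay between 0.48 and 0.66 for cell cycle genes, -0.38 and -0.07 for oxidative phosphorylation and -0.79 and -0.34 for genes of lipid-associated macrophages.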

Other observations

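Several genes of Cd209a dendritic cells had libraries that did not overlap and an unadjusted p under 0.05 but did not pass edgeR's adjusted limit, and they were named after their values were seen. Of all genes tested, 11% were higher and 5.78% lower in SH045 without overlap. Higher in SH045 was Klf4, a transcription factor of this dendritic branch (320 CPM in SH045 and 172 CPM in Vehicle, log2 change 0.75, edgeR adjusted p = 0.365). Its highest library, in SH045, was at 505 CPM, well above the SH045 mean. Also higher were Cbfa2t3, a transcriptional corepressor (461 CPM in SH045 and 287 CPM in Vehicle, log2 change 0.57), Itgam, which encodes CD11b (252 CPM in SH045 and 162 CPM in Vehicle, log2 change 0.52), and Il10ra, a chain of the interleukin-10 receptor (77.0 CPM in SH045 and 38.6 CPM in Vehicle, log2 change 0.88). Among those lower were Lyz2 (1866 CPM in SH045 and 2947 CPM in Vehicle, log2 change -0.77, edgeR adjusted p = 0.284), Ctsl, a lysosomal protease (19.9 CPM in SH045 and 44.6 CPM in Vehicle, log2 change -1.26), and H2-D1, an MHC class I molecule (1844 CPM in SH045 and 2324 CPM in Vehicle, log2 change -0.42).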
